A study of Homo sapiens and Mus musculus with 16 samples.

Results

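PAX6, SOX1, NOTCH1, HES1, HES5, NES, VIM, FABP7 and TOP2A are 9 genes used as marks of neural progenitors, the dividing cells that give rise to neurons. They were chosen by name, and all 9 were found among the 22286 genes of the human count table. The question was how their transcripts in day-20 neurons, a stage that follows the progenitor, compared between P-bodies and the fraction these were sorted from. P-bodies are cytoplasmic granules of RNA and protein. RNA was counted in P-bodies sorted by flow cytometry on a GFP-tagged granule protein, LSM14A, and in an aliquot taken before the sort. In the study's methods this aliquot, called cytoplasm here, was a resuspended pellet of lysate cleared of nuclei. It still held P-bodies and left out the supernatant of that spin, so no ratio here compares P-bodies with the whole cytoplasm. The neurons (20 days of culture) and the liver bud progenitors, an endodermal cell of the same origin, both came from UCLA4-LSM14a-GFP, a human embryonic stem cell line with the tagged gene integrated at the AAVS1 locus, so each was derived from a single line. HEK293T-LSM14a-GFP, a human embryonic kidney line, was the third cell type. All human cells thus carried the LSM14A-GFP fusion and no cell without it was compared. Each of the 3 cell types had 2 P-body and 2 cytoplasm libraries. Neuron and liver bud progenitor libraries were labelled polyA RNA and HEK293T libraries total RNA, so cell type and RNA selection cannot be told apart wherever HEK293T is set against the others. In the study's neural induction, progenitors were first made with a γ-secretase inhibitor, which blocks cleavage of Notch receptors, and this inhibitor was later omitted.

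In neural progenitors, Notch receptors such as NOTCH1 are activated by ligands on neighbouring cells (DLL and JAG proteins), cut by ADAM proteases and γ-secretase, and the released intracellular part acts with RBPJ and MAML proteins to switch on HES1 and HES5. HES1 and HES5 are repressors that hold back proneural factors, and so delay differentiation. PAX6 and SOX1 are transcription factors of the neuroectoderm, NES (nestin) and VIM (vimentin) form the intermediate filaments of progenitors, FABP7 is a fatty acid-binding protein of radial glia, and TOP2A is a topoisomerase that untangles DNA in dividing cells. P-bodies hold mRNAs that are not being translated, together with factors of mRNA repression and decay.

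In day-20 neurons the 9 genes did not lie on the same side. PAX6 and TOP2A were 4.51-fold and 4.15-fold higher in P-bodies than in cytoplasm. NES and NOTCH1 were lower in P-bodies, at 0.541 and 0.443 times the cytoplasmic level. The remaining 5 genes, VIM, HES1, HES5, SOX1 and FABP7, were not called in either direction. A gene was called when its adjusted p (edgeR quasi-likelihood test, Benjamini-Hochberg over 22093 genes) was under 0.05. The background was 14.6% of genes called higher and 14.1% called lower, so 2 of 9 in each direction stood close to it. With library size as the only scaling, 62% of all calls were on the higher side in place of 50.8%, the median of all genes rose by 0.17 on the log2 scale, and the directions of the 4 called genes stayed as they were.

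The members differed in base composition. Among the genes called in neurons, TOP2A and NOTCH1 lay furthest apart at the third base of the codon, and PAX6 and NES nearest. Stretches of 20 codons were taken from the canonical GENCODE 44 transcripts on hg38, each within 1 exon and each chosen to be closest to its own gene in the share of G or C at the third base of the codon. Capitals mark G or C at the third base of a codon. TOP2A and PAX6 are the genes higher in neuronal P-bodies, and NES and NOTCH1 the genes lower there. FABP7 and SOX1, neither of them called, are shown because their composition and the estimate of their change went apart.
TOP2A (chr17:40416779-40416838, minus strand, exon 2 of 35): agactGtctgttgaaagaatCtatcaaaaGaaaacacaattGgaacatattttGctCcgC
PAX6 (chr11:31801708-31801767, minus strand, exon 7 of 14): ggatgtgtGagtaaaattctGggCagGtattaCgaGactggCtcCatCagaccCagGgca
NES (chr1:156673141-156673200, minus strand, exon 4 of 4): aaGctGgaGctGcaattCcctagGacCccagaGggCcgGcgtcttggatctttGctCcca
NOTCH1 (chr9:136523871-136523930, minus strand, exon 3 of 34): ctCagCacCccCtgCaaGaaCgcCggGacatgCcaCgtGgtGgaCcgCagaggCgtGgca
FABP7 (chr6:122780293-122780352, plus strand, exon 2 of 4): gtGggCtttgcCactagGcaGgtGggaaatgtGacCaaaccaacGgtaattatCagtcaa
SOX1 (chr13:112067701-112067760, plus strand, exon 1 of 1): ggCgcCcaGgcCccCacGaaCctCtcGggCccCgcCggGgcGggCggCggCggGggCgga

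Over the whole coding sequence, 36.4% of codons ended in G or C in TOP2A and 53.7% in PAX6. The share was 61.6% in NES and 86.1% in NOTCH1. SOX1 reached 97.2%, while FABP7 stood at 47.7%. All of these stretches lie in coding exons of protein-coding genes.

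Library totals in the human cells ranged from 6368953 to 17972284 counts, and 3 counts, taken as the lower limit of detection, equalled 0.167 to 0.471 CPM (counts per 1000000 of the library total). The 2 neuron P-body libraries were less alike than any other pair, with a Spearman correlation across genes of 0.915 where other pairs of the series had 0.962 to 0.988, and calls of the 9 genes that change without one of them are given below. Neuronal markers identified the neurons: 16 genes such as DCX and MAP2 summed to between 14100 and 16500 CPM in neuron libraries, against 712 to 764 in liver bud progenitors and 291 to 313 in HEK293T. Pluripotency markers summed to 15.6 to 38.2 CPM in neurons but 1490 to 2630 in liver bud progenitors, above the 224 to 517 of endoderm and hepatic markers there, which go some way against the liver bud label. In the neurons, neural crest markers summed to 570 to 580 CPM in P-bodies and 271 to 298 in cytoplasm (SOX10, FOXD3 and TWIST1 at 3 counts or fewer), astrocyte markers to 97.9 to 113 and 174 to 204, oligodendrocyte markers to 69.5 to 82.7 and 89 to 112 (OLIG2 at 3 counts or fewer), mesenchyme markers to 46.5 to 49.4 and 98.6 to 108, and endoderm markers to 10.6 to 14.7 and 4.27 to 5.03. Their part in the values below was not tested. In such bulk libraries, fewer cells of a type and less RNA per cell cannot be told apart.

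**Figure D1:**
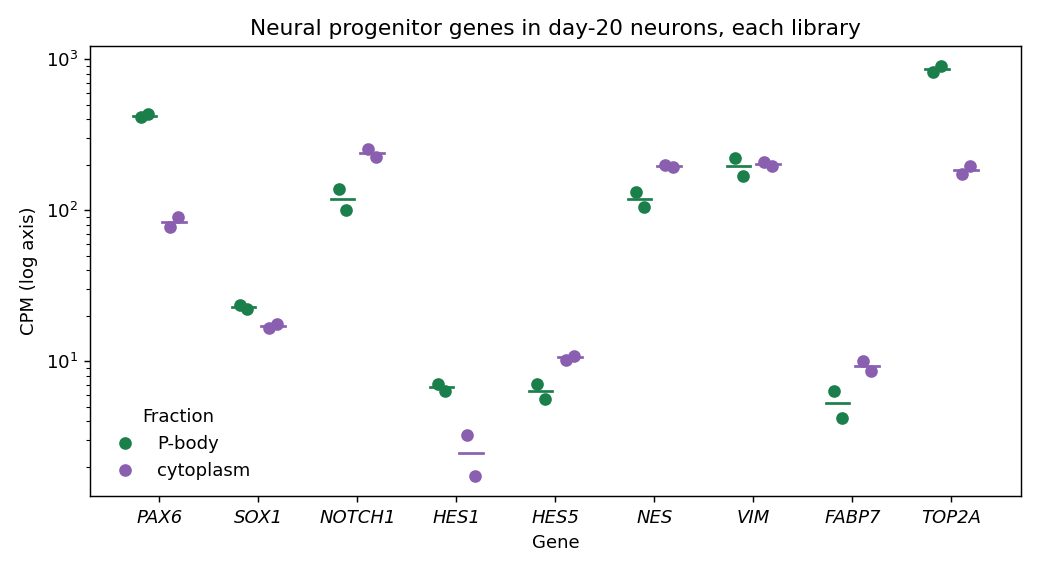
CPM (log axis) of the 9 genes in each of the 2 P-body and 2 cytoplasm libraries of day-20 neurons; points are libraries and bars their means. PAX6 and TOP2A stood far above their cytoplasmic level in P-bodies, NOTCH1 and NES below it, and only for VIM did the libraries of the fractions overlap.

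PAX6, a transcription factor that patterns the neural tube and eye, measured 413 and 432 CPM in the 2 neuron P-body libraries and 77.6 and 89.9 CPM in the cytoplasm libraries. Both P-body libraries lay far above both cytoplasm libraries, at a ratio of mean CPM of 5.04. On the normalised scale the log2 change was 2.17 ± 0.1 (SE, n = 2 libraries per fraction; edgeR adjusted p = 8.33e-09). PAX6 lies on chromosome 11 (31784779 to 31817961, minus strand), where ELP4 and PAUPAR overlap it on the opposite strand, and whether the counting used strand is not given in the sources used here. ELP4 did not exceed 3.58 CPM and PAUPAR did not exceed 0.211 CPM in any neuron library. SOX1, a SOX factor of early neuroectoderm, measured 23.6 and 22.1 CPM in P-bodies and 16.6 and 17.5 CPM in cytoplasm. Its libraries did not overlap, but the log2 change of 0.26 ± 0.23 did not pass the test (edgeR adjusted p = 0.426; 95% interval -0.23 to 0.75).

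NOTCH1, the receptor, measured 138 and 101 CPM in P-bodies and 254 and 227 CPM in cytoplasm. Both P-body libraries were below both cytoplasm libraries, with a log2 change of -1.18 ± 0.14 (edgeR adjusted p = 3.44e-05). HES1, a repressor switched on by Notch, was scarce, at 7.06 and 6.34 CPM in P-bodies and 3.22 and 1.74 CPM in cytoplasm, or between 18 and 61 counts per library. Its log2 change of 1.25 ± 0.51 did not pass the test (edgeR adjusted p = 0.0863), although it did without either P-body library (1.16 without replicate 1, adjusted p = 0.0456, and 1.34 without replicate 2, adjusted p = 0.019). HES5, the other Notch-dependent repressor, measured 7.06 and 5.6 CPM in P-bodies and 10.2 and 10.9 CPM in cytoplasm. The estimate for HES5 was thus on the cytoplasmic side, with a log2 change of -0.9 ± 0.35 that did not pass the test (edgeR adjusted p = 0.0706). Without P-body replicate 1 it was -1.09 and passed (adjusted p = 0.00759).

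NES, the intermediate filament protein by which progenitors are commonly stained, measured 133 and 105 CPM in P-bodies and 198 and 194 CPM in cytoplasm. The fractions did not overlap, and the log2 change was -0.88 ± 0.12 (edgeR adjusted p = 1.13e-04). VIM, a filament protein shared by progenitors, glia and mesenchyme, measured 222 and 168 CPM in P-bodies and 210 and 195 CPM in cytoplasm. These libraries overlapped, and the log2 change of -0.22 ± 0.13 did not pass the test (edgeR adjusted p = 0.228). With the replicate number as a block, VIM was called lower (-0.23, edgeR adjusted p = 0.0165). Leaving out P-body replicate 1, the higher of the pair, gave -0.45 for VIM (adjusted p = 0.00163), and a single fit over all human libraries gave -0.33 (adjusted p = 0.0228). FABP7 measured 6.37 and 4.23 CPM in P-bodies and 10 and 8.6 CPM in cytoplasm, with a log2 change of -0.98 ± 0.39 (edgeR adjusted p = 0.0796) and -1.32 without P-body replicate 1 (adjusted p = 0.00367). Without that library 5 of the 9 genes were called lower in place of 2, these being NES, NOTCH1, VIM, HES5 and FABP7.

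TOP2A, the topoisomerase of dividing cells, measured 826 and 898 CPM in neuron P-bodies and 175 and 196 CPM in cytoplasm. The ratio of mean CPM was 4.65 and the log2 change 2.05 ± 0.08 (edgeR adjusted p = 4.71e-09). Both P-body libraries were above both cytoplasm libraries. Across 11 alternative fits the log2 change of TOP2A ranged from 1.94 to 2.22 and that of PAX6 from 2.06 to 2.34, while NES ranged from -1.08 to -0.72 and NOTCH1 from -1.43 to -0.96, and these 4 calls were kept in each.

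Per kilobase of the canonical transcript, the order of the 9 genes differed between the fractions. In neuron cytoplasm VIM came first, at 94.2 ± 4.97 CPM per kilobase (SD, n = 2). NES (35.2 ± 0.406), TOP2A (32.5 ± 2.56) and PAX6 (30.5 ± 3.18) followed, and the libraries of TOP2A and PAX6 overlapped. NOTCH1 stood at 25.2 ± 2.02, FABP7 at 11.9 ± 1.27, HES5 at 8.01 ± 0.387, SOX1 at 3.75 ± 0.132 and HES1 at 1.57 ± 0.667 CPM per kilobase. In neuron P-bodies PAX6 (154 ± 4.92) and TOP2A (151 ± 9.04) came first and did not differ beyond their spread. VIM followed at 90.5 ± 17.6, then NES at 21.4 ± 3.48, NOTCH1 at 12.4 ± 2.72 and FABP7 at 6.75 ± 1.92. SOX1 (5.0 ± 0.239), HES5 (4.78 ± 0.778) and HES1 (4.25 ± 0.324) came last, and the libraries of neighbours in this order overlapped.

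**Figure D2:**
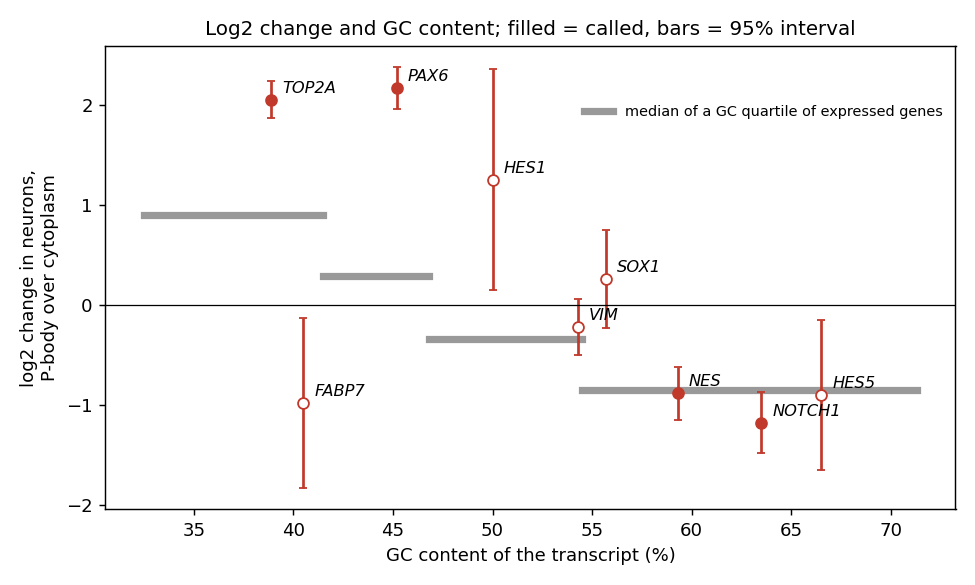
GC content of the canonical transcript (%) against the log2 change between P-bodies and cytoplasm in neurons; points are the 9 genes with 95% intervals, filled where called, and grey bars are medians of the 4 GC quartiles of 6005 expressed genes. TOP2A and PAX6 lie at 38.9% and 45.2% GC and well above their quartile's bar, NES and NOTCH1 at 59.3% and 63.5% near theirs, and FABP7 lies below the bar of its quartile.

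Among 6005 genes that averaged 20 CPM or more in the neuron libraries, P-body level fell with the GC content of the transcript. The median log2 change was 0.9 in the quartile lowest in GC, then 0.29, -0.34 and -0.85 in the quartile highest in GC. In the lowest quartile 67.1% of genes were called higher and 6.79% lower, against 0.933% and 78.5% in the highest. TOP2A belonged to the lowest quartile (12.8% of these genes had less GC) and its log2 change of 2.05 was above the median of 0.9. PAX6 belonged to the second quartile by GC, where its 2.17 compared with a median of 0.29. NES and NOTCH1 were in the highest quartile, and their log2 changes of -0.88 and -1.18 were close to its median of -0.85. HES5 had the highest GC of the 9, at 66.5%, and its estimate of -0.9 was also near that median. SOX1, at 55.7% GC, fell within the same quartile with an estimate of 0.26. VIM (54.3% GC, log2 change -0.22) was close to the median of its quartile, -0.34. HES1 was at 50% GC with an estimate of 1.25, and FABP7 at 40.5% GC with -0.98, each away from the median of its quartile. The part of GC content in these values was not tested.

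The pathway around the members was described from gene lists. Counts of each list in neurons stand beside 14.6% of all genes called higher and 14.1% lower, a background that includes scarce genes. Among genes averaging 20 CPM or more, calls were more frequent. From the GC quartile lowest in GC to the highest, which held NOTCH1, 6.79%, 19.2%, 42.8% and 78.5% of these were called lower. The shares called higher were 67.1%, 42.6%, 15.9% and 0.933% in the same order. The part of level and GC content in the list counts was not tested. Of the 5 Notch ligands, DLL1 and JAG1 were higher in neuron P-bodies and none was lower. DLL1 measured 164 and 124 CPM in P-bodies against 66.1 and 32.6 in cytoplasm (log2 change 1.37 ± 0.26, edgeR adjusted p = 0.0013), and JAG1 measured 115 and 135 against 66.3 and 70 (0.71 ± 0.12, adjusted p = 6.07e-04). DLL3, DLL4 and JAG2 were under 7 CPM in every neuron library and not called. Receptors lay on the other side: 3 of 4 were lower in P-bodies and none higher. NOTCH2, at 58.5 and 52.1 CPM in P-bodies against 134 and 117 in cytoplasm, had a log2 change of -1.35 ± 0.14 (edgeR adjusted p = 6.57e-06). NOTCH3, at 59.3 and 53.6 CPM against 176 and 162, had a log2 change of -1.75 ± 0.12 (edgeR adjusted p = 2.95e-07). NOTCH4 was at most 4.33 CPM and not called. These ligand and receptor calls were kept under 3 other scalings and without each library in turn, and JAG2 was also called lower without P-body replicate 1 (-2.4, adjusted p = 7.57e-04) and DLL4 higher without P-body replicate 2 (2.6, adjusted p = 0.0124).

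Of 15 genes for processing and trafficking of Notch and its ligands, 2 were higher in neuron P-bodies and 5 lower. The background was 14.6% and 14.1% of all genes. The 2 were the proteases ADAM10 (138 and 134 CPM in P-bodies, 54.9 and 62.1 in cytoplasm; log2 change 1.05) and ADAM17 (0.95). Subunits of γ-secretase were lower, among them NCSTN (log2 change -0.75) and APH1A (-1.49). The count of genes lower fell to 2 with size factors by relative log expression, with library size as the only scaling and without either cytoplasm library, and rose to 7 without P-body replicate 1. Of 8 genes of the nuclear complex, 5 were higher and 1 lower. RBPJ, the DNA-binding partner of Notch, measured 302 and 305 CPM in P-bodies against 111 and 126 in cytoplasm (log2 change 1.19 ± 0.1, edgeR adjusted p = 1.00e-06). SNW1 (log2 change 1.82), KDM5A (0.98), MAML2 (0.85) and SPEN (0.27) were the others called higher, and the acetyltransferase EP300 was called lower (-0.26). MAML1 (0.06) and MAML3 (-0.09) were not called. Of 7 antagonists 4 were higher, NUMB (log2 change 1.8), ITCH (1.72), LNX1 (1.18) and FBXW7 (0.68), and NUMBL (-0.69) and DTX1 (-0.64) were lower, with NRARP (-0.5) not called. EP300, NUMBL and DTX1 were no longer called with size factors by relative log expression or with library size as the only scaling, EP300 not without P-body replicate 1 or either cytoplasm library, NUMBL not without P-body replicate 2 (-0.49, adjusted p = 0.0508) or cytoplasm replicate 1, DTX1 not without P-body replicate 2 (-0.33, adjusted p = 0.0983) or either cytoplasm library, and SPEN and LNX1 not without either cytoplasm library. MAML3 was called lower without P-body replicate 2 (-0.5, adjusted p = 0.0258).

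Of the 8 HES and HEY genes tested, 1 was higher and 1 lower, close to the background of 14.6% and 14.1%. HES6 was the one lower, at 11.8 and 9.51 CPM in P-bodies against 17.7 and 17.3 in cytoplasm (log2 change -0.88 ± 0.27, edgeR adjusted p = 0.0289). HES2 was the one higher, at 1.16 and 2.54 CPM against 0 in both cytoplasm libraries. Both calls were lost without either cytoplasm library (adjusted p of 0.0537 to 0.257), and that of HES6 with library size as the only scaling (-0.72, adjusted p = 0.072). HEYL, HEY1, HEY2 and HES4 were not called, and HES7 had no count in neurons. Without P-body replicate 1 the count higher rose to 4, with HEYL (0.95, adjusted p = 0.00372) and HEY2 (1.35, adjusted p = 0.0431) called beside HES1 and HES2, and without either cytoplasm library no gene of this list was called. Of 29 other neural progenitor genes tested, 5 were higher and 5 lower, also close to that background. These counts moved to 5 and 8 without P-body replicate 1, to 8 and 7 without P-body replicate 2 and to 5 and 3 without cytoplasm replicate 1, and PLAGL1, named after its values were seen, was lower without the first (-1.57) and higher without the second (1.18). PAX3, a factor of dorsal neural tube and neural crest, measured 364 and 350 CPM in P-bodies against 138 and 148 CPM in cytoplasm (log2 change 1.16 ± 0.09, edgeR adjusted p = 8.19e-07). PTPRZ1, a radial glial phosphatase, was lower (log2 change -0.96), as was the RNA-binding protein MSI1 (-1.05). Others called, named after their values were seen, were SOX2, DACH1 and NEUROG2 on the higher side and ZIC1, SLC1A3 and SOX3 on the lower. SLC1A3 was not called under 2 other scalings, without P-body replicate 2 or without either cytoplasm library (adjusted p of 0.0567 to 0.199), nor SOX3 without cytoplasm replicate 1 (adjusted p = 0.154).

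Of 11 intermediate filament genes, 2 were higher in neuron P-bodies and 3 lower, beside 14.6% and 14.1% of all genes. The neurofilaments NEFM (log2 change 0.5) and NEFH (1.97) were higher, while INA (-0.67) and GFAP (-1.31, named after its value was seen) were lower with NES. GFAP, at most 8.7 CPM, was not called under 2 other scalings or without either cytoplasm library (adjusted p of 0.0537 to 0.258). Of 6 topoisomerases, TOP1 shared the direction of TOP2A, at 779 and 842 CPM in P-bodies against 138 and 160 in cytoplasm (log2 change 2.28 ± 0.09, edgeR adjusted p = 3.34e-09). TOP2B, the form of the enzyme found in neurons, was lower, at 105 and 111 CPM against 132 and 159 (-0.6 ± 0.11, adjusted p = 0.00132), as were TOP3A (-0.86) and TOP3B (-1.1). TOP3B was not called without cytoplasm replicate 2 (-1.02, adjusted p = 0.118). TOP1MT (-1.5) was not called, but passed without either P-body library (-1.89 and -1.18). None of the 5 fatty acid-binding protein genes tested was called by edgeR, and the unadjusted p of FABP7 was 0.0266.

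TOP2A was accompanied by other genes of mitosis. Of 22 mitotic genes, 15 were higher in neuron P-bodies and none lower, and this count was 13 to 15 under 3 other scalings and without each library in turn. The background was 14.6% of all genes higher and 14.1% lower, and the median log2 change was 1.03 against 0.19 for all genes. That background includes scarce genes. Among genes averaging 20 CPM or more in neurons, 67.1% were called higher in the quartile lowest in GC, which held TOP2A. From the second quartile to the highest this share was 42.6%, 15.9% and 0.933%. The part of level and GC content in the mitotic count was not tested. MKI67, the proliferation mark Ki-67, measured 1870 and 2040 CPM in P-bodies and 997 and 1090 CPM in cytoplasm (log2 change 0.74 ± 0.07, edgeR adjusted p = 4.70e-06). Transcripts of dividing cells were thus present at high level in these day-20 cultures. CENPF measured 1320 and 1390 CPM against 219 and 243 (log2 change 2.39 ± 0.08, edgeR adjusted p = 1.39e-09). CENPE (log2 change 2.58) and TPX2 (1.71) were also higher. Genes of DNA replication did not share this: of 14, 2 were higher, CDC6 (log2 change 1.9) and POLA1 (0.79), and 3 lower, MCM7 (-0.67), MCM5 (-0.82) and, named after its value was seen, MCM2 (-0.6). MCM2 was not called under 2 other scalings or without either cytoplasm library (adjusted p of 0.0545 to 0.425).

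**Figure D3:**
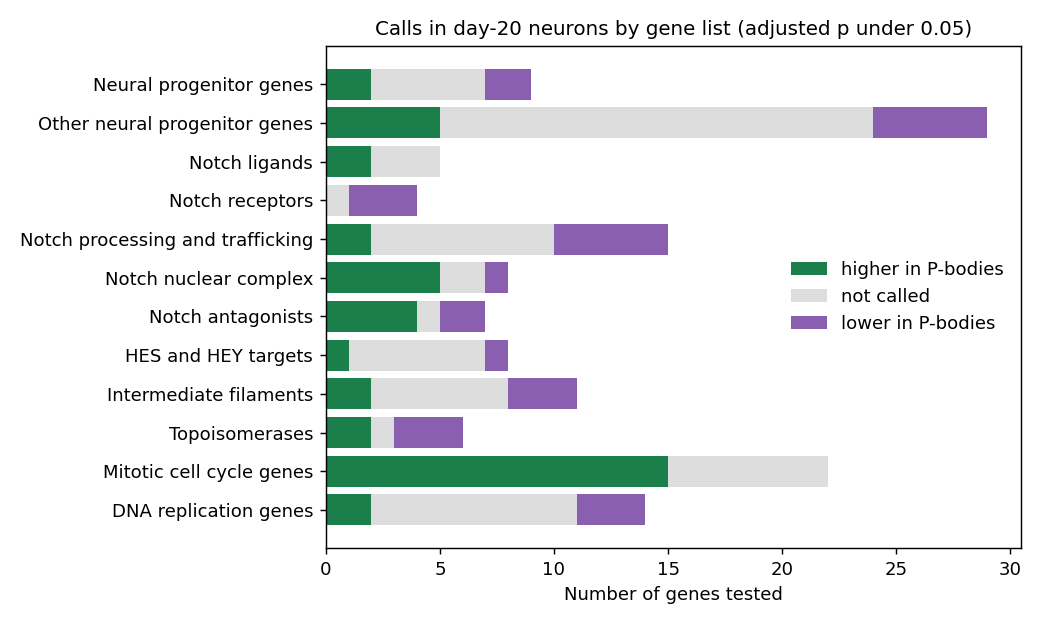
Number of genes in each list (horizontal axis) called higher in P-bodies, not called, or called lower in day-20 neurons by edgeR at an adjusted p under 0.05. Mitotic genes were called in 1 direction (15 of 22 higher, none lower), Notch receptors in the other (3 of 4 lower), and the 9 neural progenitor genes in both (2 and 2). Over all genes, scarce ones included, 14.6% were called higher and 14.1% lower.

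Liver bud progenitors, which are not of neural origin, served as a contrast. There PAX6, NES, VIM and NOTCH1 were lower in P-bodies than in cytoplasm, and HES1 and TOP2A were higher. These 2 of 9 higher and 4 of 9 lower compare with a background of 21.4% and 17.1% of 21951 genes, and with library size as the only scaling 44.1% of all calls were on the higher side in place of 55.7%. PAX6 was close to absent, at 2.73 and 0.974 CPM in P-bodies and 5.18 and 4.97 CPM in cytoplasm, or 10 to 37 counts per library. Its log2 change of -1.28 ± 0.41 (edgeR adjusted p = 0.00818) became -0.7 without P-body replicate 2 (adjusted p = 0.228). NES measured 24.8 and 28.6 CPM in P-bodies against 54.6 and 50.9 in cytoplasm (log2 change -0.79 ± 0.12, edgeR adjusted p = 4.64e-08). VIM measured 73.5 and 76.6 CPM against 119 and 118 (-0.47 ± 0.08, adjusted p = 1.40e-06). NOTCH1 measured 22.5 and 23.7 CPM against 73.3 and 89.2 (-1.63 ± 0.11, adjusted p = 1.57e-20).

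HES1 in liver bud progenitors measured 3.25 and 3.89 CPM in P-bodies and 0.628 and 1.88 CPM in cytoplasm. The log2 change was 1.65 ± 0.47 (edgeR adjusted p = 0.00284) but fell to 1.1 without cytoplasm replicate 1 (adjusted p = 0.107), a library of 4 counts for this gene. TOP2A, the other member called higher, measured 814 and 796 CPM in P-bodies against 495 and 497 in cytoplasm (log2 change 0.89 ± 0.05, edgeR adjusted p = 5.85e-24). HES5 had 1 and 0 counts in the P-body libraries and none in cytoplasm, SOX1 had 3 counts or fewer in each library, and FABP7 between 2 and 12. Fraction differences of these 3 genes were not detectable at this depth.

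In HEK293T the genes PAX6, HES1 and TOP2A were higher in P-bodies, and VIM and NOTCH1 lower. The background was 19.3% of 21903 genes higher and 22.8% lower. PAX6 measured 588 and 563 CPM in P-bodies and 143 and 167 CPM in cytoplasm. The fitted log2 change was 2.02 ± 0.06 (edgeR adjusted p = 8.03e-36). HES1 measured 17 and 17.8 CPM against 8.12 and 6.79 (1.35 ± 0.18, adjusted p = 1.29e-09). TOP2A measured 822 and 925 CPM against 542 and 513 (0.86 ± 0.05, adjusted p = 2.44e-21). On the lower side, VIM measured 49.8 and 44.3 CPM against 78.4 and 86.4 (-0.68 ± 0.09, adjusted p = 2.26e-09). NOTCH1, at 6.73 and 4.01 CPM against 11 and 9.02, changed by -0.78 ± 0.22 on the log2 scale (edgeR adjusted p = 0.00207) and was no longer called without P-body replicate 2 (-0.44, adjusted p = 0.188) or cytoplasm replicate 1 (-0.59, adjusted p = 0.0524). NES had 8 to 12 counts per library, FABP7 2 to 6, and SOX1 and HES5 1 or none.

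**Figure D4:**
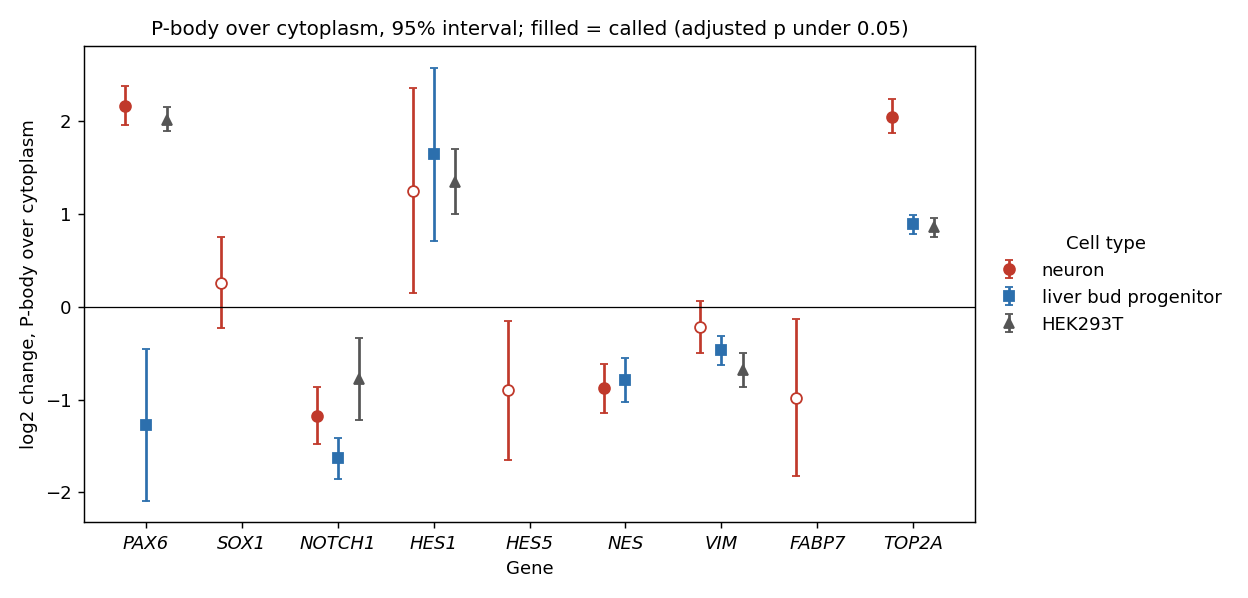
Log2 change between P-bodies and cytoplasm of each gene in neurons, liver bud progenitors and HEK293T, with 95% intervals; filled points were called (edgeR adjusted p under 0.05), and a gene is not drawn for a cell type where no library held at least 15 counts. TOP2A was higher in P-bodies of each cell type, with the largest log2 change in neurons (2.05, against 0.89 and 0.86). Its rank among all genes tested was alike, at percentile 81.2 in neurons, 82.4 in liver bud progenitors and 78.6 in HEK293T. PAX6 was higher in neurons (percentile 82.3) and HEK293T (93.8), and NOTCH1 was lower in all 3.

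Whether P-body enrichment itself differed between cell types was tested as an interaction over the 8 libraries of each pair. Against liver bud progenitors, PAX6 and TOP2A were more P-body enriched in neurons and no member was less so, with a background of 9.21% of 22268 genes called higher and 8.5% lower. The difference was 3.45 ± 0.33 for PAX6 on the log2 scale (edgeR adjusted p = 3.88e-06; 95% interval 2.74 to 4.16) and 1.16 ± 0.09 for TOP2A (adjusted p = 5.58e-07; 0.97 to 1.36). By rank among all genes tested, the difference of PAX6 stood at percentile 87.7 and that of TOP2A at 70.2. TOP2A was not alone in being called: of the 22 mitotic genes, 13 were called higher in the same comparison and none lower, with a median of 0.79. Of the 5 other topoisomerases, 1 was called higher and none lower. For PAX6 the liver bud progenitor side rests on 10 to 37 counts per library. The differences of NES (-0.1, 95% interval -0.5 to 0.3), VIM (0.24, -0.13 to 0.62) and NOTCH1 (0.45, -0.01 to 0.91) did not pass the test, and HES1, HES5, SOX1 and FABP7 had intervals wider than 3 log2 units. With library size as the only scaling, 78.9% of all calls were on the higher side in place of 52%, and VIM and NOTCH1 were then also called higher.

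Against HEK293T, TOP2A was the 1 member more enriched in neuronal P-bodies, by 1.06 ± 0.11 on the log2 scale (edgeR adjusted p = 1.00e-05; 95% interval 0.83 to 1.29), and no member was less enriched. Of the 22 mitotic genes, 12 were called higher here and none lower, with a median of 0.82, and so was 1 of the 5 other topoisomerases. The background was 6.35% of 22262 genes higher and 6.19% lower. The share of calls on the higher side moved from 50.6% to 88.2% with library size as the only scaling, to 35.5% with ribosomal RNA genes left out and to 40.3% with DESeq2. For PAX6 the difference was 0.01 ± 0.12 (95% interval -0.24 to 0.26), and it passed the test with library size as the only scaling (0.44, adjusted p = 0.0344). VIM (0.32), NOTCH1 (-0.53) and FABP7 (-1.96) did not pass. Without neuron P-body replicate 1, NOTCH1 (-0.77, adjusted p = 0.0106) and FABP7 (-2.29, adjusted p = 0.0477) were called lower, and without neuron P-body replicate 2, VIM was called higher (0.51, adjusted p = 0.00536).

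The cell types were also compared within each fraction. In cytoplasm, 8 of the 9 genes were higher in neurons than in liver bud progenitors and TOP2A was lower. The background was 26% of 21900 genes higher and 25.8% lower (50.2% of calls higher, and 36.5% with library size as the only scaling). PAX6 was 21.5-fold higher (log2 change 4.42 ± 0.17, edgeR adjusted p = 3.01e-37), NES 4.86-fold, NOTCH1 3.86-fold, VIM 2.24-fold and FABP7 11.9-fold. HES5 had no count in liver bud progenitor cytoplasm, so neurons were at least 24.2-fold higher, and at least 40.7-fold higher than HEK293T cytoplasm (floor of 3 counts per library). SOX1 had 191 and 181 counts in neurons against 1 in each liver bud progenitor library. HES1 was 2.53-fold higher (edgeR adjusted p = 0.0311), and this was not kept without liver bud progenitor cytoplasm replicate 1 (log2 change 0.79, adjusted p = 0.359) or neuron cytoplasm replicate 1 (0.78, adjusted p = 0.379), nor with library size as the only scaling (adjusted p = 0.128), a filter on low counts (0.0562) or DESeq2 (0.219), and was lost under 6 of 11 alternatives in all. TOP2A was at 0.487 times the liver bud progenitor level, a log2 change of -1.04 ± 0.08 (edgeR adjusted p = 4.53e-20).

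In P-bodies, 7 of the 9 genes were higher in neurons than in liver bud progenitors and none lower, with 18.4% of 22166 genes called higher and 22.7% lower. PAX6 showed a log2 change of 7.7 ± 0.23 (edgeR adjusted p = 9.45e-09), and NES (2.01), NOTCH1 (2.23), VIM (1.23) and FABP7 (3.08) were closer to their cytoplasmic differences. HES1 (0.76 ± 0.43, edgeR adjusted p = 0.187) was not called. TOP2A did not pass the test in P-bodies either, with a log2 change of -0.04 ± 0.07 (edgeR adjusted p = 0.631; 95% interval -0.2 to 0.11), and was called slightly lower without neuron P-body replicate 2 (-0.11, adjusted p = 0.0395).

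The level of TOP2A was tested between neurons and liver bud progenitors only, and HEK293T values, from total RNA libraries, are set beside them without a test. The mean of TOP2A was 862 ± 51.5 CPM (SD, n = 2) in P-bodies of neurons, 805 ± 12.8 in liver bud progenitors and 873 ± 72.5 in HEK293T. Cytoplasmic means were 185 ± 14.6, 496 ± 1.78 and 528 ± 20.5 CPM in the same order. Of the 22 mitotic genes, 19 were lower in cytoplasm of neurons than of liver bud progenitors and none higher, and TOP2A was also lower. The background was 25.8% of all genes lower and 26% higher. In P-bodies 16 of the mitotic genes were lower and 1 higher (22.7% and 18.4% of all genes), with a median log2 change of -0.86. TOP2A was at -0.04 there and not called, as were 5 mitotic genes, among them MKI67 (-0.06) and TPX2 (-0.02). PAX6 differed between cell types in both fractions, with P-body means of 422 ± 13.5 CPM in neurons, 1.85 ± 1.24 in liver bud progenitors and 576 ± 17.9 in HEK293T, and cytoplasmic means of 83.7 ± 8.72, 5.07 ± 0.153 and 155 ± 17.4 CPM.

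**Figure D5:**
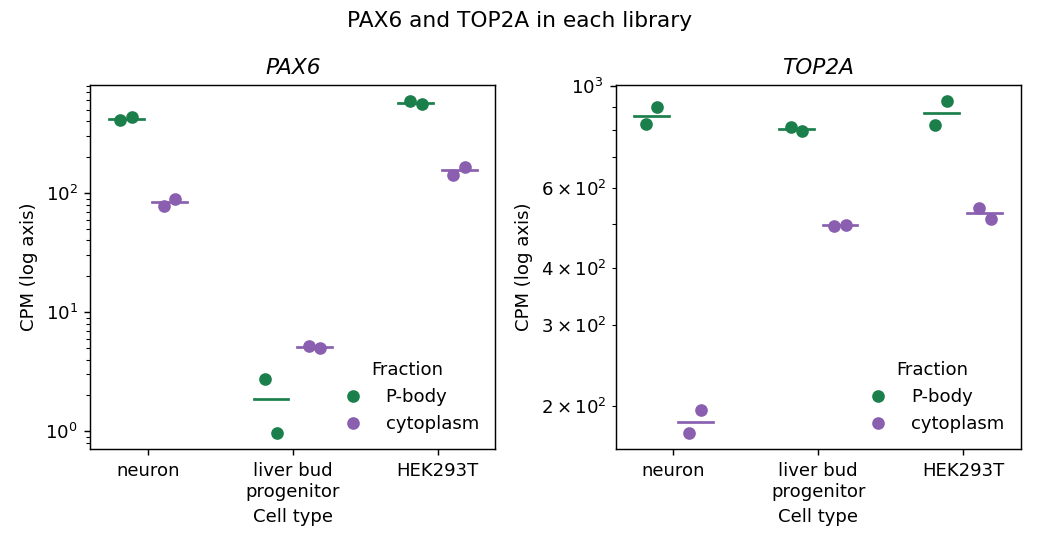
PAX6 and TOP2A in CPM (log axes that differ between the panels) in each library of neurons, liver bud progenitors and HEK293T, with bars at the means of 2 libraries. TOP2A lay between 796 and 925 CPM in all P-body libraries but between 175 and 196 CPM in neuron cytoplasm, against 495 to 542 in the other cytoplasm libraries.

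Of the Notch pathway, the receptors and RBPJ went the same way in the other cell types, and other lists did not all do so. The background was 21.4% of all genes higher and 17.1% lower in liver bud progenitors, and 19.3% and 22.8% in HEK293T. NOTCH1, NOTCH2 and NOTCH3 were lower in P-bodies of liver bud progenitors and of HEK293T as well, so 3 of 4 receptors were lower in each. In HEK293T, NOTCH3 was not called without cytoplasm replicate 1 (-0.6, adjusted p = 0.0682). RBPJ was higher in both (log2 change 1.07 in liver bud progenitors and 0.76 in HEK293T). In liver bud progenitors the nuclear complex had 3 of 8 genes higher and 3 lower, processing 3 of 15 higher and 3 lower, and the ligands none higher and JAG2 lower (-1.03). In HEK293T the nuclear complex had 6 of 8 higher and 1 lower, and processing 2 of 15 higher and 8 lower, and DLL3 was the ligand called lower (-1.31). DLL1 and JAG1 were higher in P-bodies of HEK293T (1.62 and 1.01) but were not called in liver bud progenitors (-0.34 and -0.14), where JAG1 was called lower with library size as the only scaling (-0.33, adjusted p = 0.00193). For these 2 ligands the difference in enrichment between neurons and liver bud progenitors passed the test, at 1.7 ± 0.45 (edgeR adjusted p = 0.0157) for DLL1 and 0.85 ± 0.15 (adjusted p = 9.73e-04) for JAG1. That of DLL1 did not pass without liver bud progenitor P-body replicate 1 (adjusted p = 0.0714), P-body replicate 2 (0.0651) or cytoplasm replicate 2 (0.113). NOTCH3 was less P-body enriched in neurons than in HEK293T, by a log2 difference of -1.03 ± 0.23 (edgeR adjusted p = 0.00739), which did not pass with library size as the only scaling (-0.59, adjusted p = 0.089) or without HEK293T P-body replicate 2 (adjusted p = 0.0683), HEK293T cytoplasm replicate 2 (0.0569) or neuron cytoplasm replicate 1 (0.0549).

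In GC content the other cell types resembled neurons. The median log2 change fell from 0.88 in the quartile lowest in GC to -0.66 in the highest in liver bud progenitors; in HEK293T it fell from 0.68 to -0.86. TOP2A, at 0.89 in liver bud progenitors and 0.86 in HEK293T, was close to the median of its quartile there (0.88 and 0.68), and in neurons it was above it (2.05 against 0.9). PAX6 exceeded the median of its quartile in neurons (2.17 against 0.29) and HEK293T (2.02 against 0.45) but not in liver bud progenitors (-1.28 against 0.38). NES, at -0.79 in liver bud progenitors, was close to the median of -0.66.

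Across the 12 human libraries, the genes with the pattern most like each member were found by Pearson's r of log2 CPM among genes averaging 20 CPM or more. The points share cell type, fraction and library, and r is a description. For PAX6 they were ARID5B (r = 0.983) and USP30 (0.973), and for TOP2A VPS4B (0.996) and NSRP1 (0.993). NES was nearest to PTPRD (0.999) and DPYSL3 (0.998), NOTCH1 to KIF1A and AUTS2 (both 0.994), and VIM to PCIF1 (0.993) and TCF3 (0.99). SOX1 and HES5 had the same nearest gene, the neurotrophin receptor gene NTRK2 (0.994 and 0.993), followed by TLX1 (0.992) and NOVA1 (0.992). FABP7 was nearest to SOGA3 (0.98) and PLEKHO1 (0.974), and HES1 to ACTR8 (0.968) and DNAJA1 (0.952).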

How the data were processed

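Values were gene counts deposited by the authors, one table for human cells (hg38) and another for mouse embryonic stem cells (mm10), in 12 and 4 libraries. Per the study's methods, Smart-seq reads were mapped with HISAT and counted with featureCounts, and snapTotal-seq reads were quantified with salmon through nf-core, both on refGene annotation, and genes under 10 reads over all samples were removed. By their labels (polyA or total RNA), neuron and liver bud progenitor libraries were taken as the first kind and HEK293T and mouse libraries as the second. The human columns stand together in a single table and do not name a pipeline. If the pipelines differed, cell type and pipeline cannot be told apart for HEK293T. Whether counting used strand is not given in the sources used here. Deposited tables of the authors' comparisons hold log2 fold changes and adjusted p-values and were not used.

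Groups came from the labels. Counts were tested with edgeR 4.0.16 (quasi-likelihood test, TMM scaling, R 4.3.3, limma 3.58.1) on all genes with a count in the fit, with Benjamini-Hochberg adjustment over those genes. CPM (counts per 1000000 of the library total) is not TMM-scaled, so ratios of CPM differ from fitted folds. In neurons, ribosomal RNA genes took 13.4% and 11.4% of counts in P-bodies but 24.9% and 21.5% in cytoplasm, which lowers the CPM of other genes in cytoplasm. Errors are SE of the log2 change or SD of CPM over 2 libraries, and intervals are 95%. Each fraction comparison used the 4 libraries of a cell type and each interaction the 8 of a pair. With 2 libraries a group, p-values measure only the spread between these samples. The study states that its sequencing assays used at least 2 biological replicates. Nothing in the labels says that these libraries came from separate cultures, so part of the spread may be technical. Depth and floors cover counting error only.

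The members and lists were chosen with earlier results of these data known. Members are all named; from longer lists, up to 4 called genes of highest CPM in neurons are named, and lists of 9 or fewer are named whole. A gene of the lists is counted but not reported here by name. The scripts were tested on simulated data. Whether a shared replicate number ties a P-body library to its own cytoplasm aliquot is not given in the sources used here. The main fits did not use these numbers. Alternatives were DESeq2 1.42.0, other scalings and filters, 1 joint fit, a replicate block, and leaving out each library; for gene lists the scalings and left-out libraries were chosen after seeing the data. Sequences and gene models came from hg38 with GENCODE 44.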

Additional observations from a re-analysis of the deposited data

Results flagged for a closer look

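The P-body enrichment of PAX6 differed between neurons and liver bud progenitors by 3.45 on the log2 scale (edgeR interaction test, adjusted p = 3.88e-06), where PAX6 was higher in P-bodies in both neuron replicates and lower in both liver bud progenitor replicates. The enrichment of TOP2A differed between the same cell types by 1.16 (adjusted p = 5.58e-07) and between neurons and HEK293T by 1.06 (adjusted p = 1.00e-05), with TOP2A higher in P-bodies in every cell type. These 3 values were picked out because the difference between cell types itself passed the test. By rank among all genes tested, PAX6 stood at percentile 87.7, and TOP2A at 70.2 against liver bud progenitors and 74 against HEK293T. Of the 22 mitotic genes, 13 were also more enriched in neurons against liver bud progenitors and 12 against HEK293T, and none less.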

How the results depend on the processing

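Of 826 values of the 9 genes and their mouse counterparts under the alternatives, 791 kept their side of the threshold, 14 lost the call, 20 gained one and 1 called value changed sign. Among the 791, 31 values that were not called in either fit also changed sign. The called value was mouse Vim, at -0.03 with library size as the only scaling against 0.37. Counts of called members moved with DESeq2 to 1 higher in liver bud progenitors (from 2) and 1 lower in HEK293T (from 2). With library size only they moved to 4 higher for neurons minus liver bud progenitors (from 2) and to 3 higher for neurons minus HEK293T (from 1). The causes were not tested, beyond that library size alone moved the median of all genes by 0.35 and 0.43 in these interactions. Leaving out 1 library gave 4001 to 8827 genes called in neurons (6343 with all), with 2 to 5 members lower. It gave 1 to 2 members higher in liver bud progenitors and 1 to 2 lower in HEK293T. For neurons minus liver bud progenitors 2419 to 6285 genes were called (3942 with all). For neurons minus HEK293T the range was 1562 to 4871 (2793 with all), with 1 to 2 members higher and 0 to 2 lower. In P-bodies, neurons against liver bud progenitors, 0 to 1 members were lower, and in mouse cells 1 to 2. A lone library left in a group was assumed to vary like the other groups. Depth limits HES5, SOX1 and FABP7 outside neurons, at 12 counts or fewer per library. In mouse cells 28.2% of calls were higher with library size only against 55.6%.

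With the replicate number as a block, 6954 genes were called in neurons against 6343, 4701 for neurons minus liver bud progenitors against 3942, and 3564 for neurons minus HEK293T against 2793. The block called 1 member lower for neurons minus HEK293T (from 0), which was NOTCH1 (-0.54, adjusted p = 0.0437), and also VIM in neurons (-0.23, adjusted p = 0.0165) and NOTCH1 for neurons minus liver bud progenitors (0.43, adjusted p = 0.0207), and lost HES1 in cytoplasm (adjusted p = 0.0513). Deviations of same-numbered libraries correlated at 0.131 in neurons, 0.063 in liver bud progenitors, -0.0937 in HEK293T and -0.0364 in mouse cells. With a single replicate difference per fraction, these values cannot decide whether the libraries were paired. The study's methods stored sorted P-bodies with aliquots of the matching fraction before the sort. Whether replicate numbers follow that match is not given in the sources used here.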

Other observations

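In mouse embryonic stem cells (KH2-LSM14a-GFP, serum-LIF culture, total RNA, 2 P-body and 2 cytoplasm libraries), which were outside the human comparisons, 7 of the 9 genes were matched by symbol. Pax6, Hes1 and Top2a were higher in P-bodies and Notch1 and Nes lower. The background was 25.8% of 15881 genes called higher and 20.6% lower. Pax6 measured 29 and 30.2 CPM in P-bodies and 10.8 and 12.6 CPM in cytoplasm, with a fitted log2 change of 1.74 ± 0.14 (edgeR adjusted p = 2.14e-10). Top2a measured 2070 and 2000 CPM against 1460 and 1510 (0.85 ± 0.04, adjusted p = 3.21e-16), and Hes1 18 and 17.5 CPM against 11.8 and 12.7 (0.94 ± 0.16, adjusted p = 2.51e-05). Notch1 measured 51.7 and 49.2 CPM against 111 and 113 (-0.75 ± 0.07, adjusted p = 3.95e-09). Nes, at 3.58 and 3.68 CPM against 7 and 12.2, changed by -1 ± 0.26 on the log2 scale (edgeR adjusted p = 0.0027) and was not called without cytoplasm replicate 2 (-0.54, adjusted p = 0.14). Vim was called higher (0.37, edgeR adjusted p = 6.03e-05) although its CPM was 84.4 and 86.6 in P-bodies and 86.9 and 87.6 in cytoplasm, and with library size as the only scaling its log2 change was -0.03. Sox1 (0.27, edgeR adjusted p = 0.187) was not called.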
